A study of Mus musculus with 97 samples.

Results

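The 21 hearts described here are the untreated female controls of a mouse study of non-steroidal anti-inflammatory drugs and tryptophan, 21 of 97 libraries in all and 21 of 59 from heart. They were taken by their labels alone: heart tissue, control treatment, female sex, in 3 experimental batches that the labels describe as distinct cohorts of mice, Exp3 with 8 hearts, Exp2 with 8 and Exp1 with 5. All were C57BL/6 mice from one supplier on normal chow, 11 weeks old at collection, and each library came from a whole heart of 1 mouse. Exp3 and Exp2 controls received a daily intraperitoneal injection of phosphate-buffered saline (PBS) at noon in the last week, so "untreated" means free of drug and not free of handling. Exp1 controls were not injected. Exp3 hearts were collected in 4 dissection batches of 2 controls each, and no dissection batch is given for the other cohorts. The sources used here do not give the hour of collection. Because Exp1 is both the cohort without injections and a cohort of its own, injection and cohort cannot be told apart in any comparison with Exp1, and Exp3 and Exp2 differ in cohort alone as far as the labels go. The comparisons were the injected cohorts (Exp3 and Exp2) against Exp1, and Exp3 against Exp2. Hearts of naproxen-fed females (7 injected in Exp2, 5 not injected in Exp1) and of tryptophan-injected females (8 in Exp3) are used only where they bear on a control result.

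A heart library is a mixture. Cardiomyocytes supply most of its messenger RNA, through the sarcomere proteins that contract and the mitochondrial genes that feed them. Red cells, platelets and leukocytes enter with the blood left in the chambers and vessels, and pericardial fat, the atria and the outer mesothelial layer enter with the dissection. The heart also keeps its own circadian clock. In that clock Bmal1 (gene symbol Arntl) pairs with Clock or Npas2 to drive the Per and Cry genes, whose proteins then repress the pair, and Arntl transcripts therefore run opposite in phase to Per2 and Cry1. Nr1d1 and Nr1d2 repress Arntl while Rora activates it, and the output factors Dbp, Tef and Hlf bind D-box sites. Glucocorticoids released on handling or by the daily rhythm induce genes such as Fkbp5, Zbtb16, Per1 and the metallothioneins. In bulk tissue, fewer cells of a type and less RNA per cell cannot be told apart.

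The regulatory letters are shown for 5 genes of the clock core and clock output lists, taken from those that hold a motif. Of these 5 genes, 4 were called lower in Exp3 than in Exp2, before any adjustment. Bhlhe41 holds an E-box too and is not shown. Per2, Cry2, Wee1 and Hlf, also called lower, are not among the genes in which a motif was found. Whether each had a promoter in the search is not given here. Each line gives a stretch of the promoter (RefSeq, GRCm38.p6, 5′ to 3′ on the gene's strand), with capitals on an E-box, CACGTG, the site of Bmal1 and its partners, or on a D-box, TTATGTAA or TTATGCAA, the site of Dbp, Tef and Hlf.
Ciart, chr3:95882247-95882364, minus strand: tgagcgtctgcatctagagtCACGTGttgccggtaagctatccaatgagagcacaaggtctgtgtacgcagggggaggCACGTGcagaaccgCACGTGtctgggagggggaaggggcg
Cry1, chr10:85185055-85185134, minus strand: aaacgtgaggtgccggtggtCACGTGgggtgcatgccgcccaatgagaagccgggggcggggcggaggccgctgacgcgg
Tef, chr15:81802526-81802625, plus strand: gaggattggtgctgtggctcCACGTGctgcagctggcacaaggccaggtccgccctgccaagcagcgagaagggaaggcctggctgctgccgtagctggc
Per1, chr11:69098763-69098948, plus strand: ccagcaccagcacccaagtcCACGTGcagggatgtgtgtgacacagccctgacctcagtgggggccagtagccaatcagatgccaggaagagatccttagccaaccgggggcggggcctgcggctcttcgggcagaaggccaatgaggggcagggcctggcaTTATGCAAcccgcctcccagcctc
Per3, chr4:151044791-151044890, minus strand: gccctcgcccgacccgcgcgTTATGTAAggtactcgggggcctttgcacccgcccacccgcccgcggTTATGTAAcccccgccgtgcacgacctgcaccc
The search covered the 250 bases before each gene start on both strands, and none of these motifs overlapped another. The clock core and clock output lists, of 13 and 8 genes, had 22 promoters in the search, of 17 genes. An E-box lay in 6 of the 22 and in 6.02% of 32851 RefSeq promoters, and a D-box in 2 of the 22 and in 1.50% of all. A match is a description of the letters and not evidence of binding.

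Sequencing depth per heart, as summed estimated counts in units of 1e+06, was 47.4 to 69.8 in Exp3, 43.9 to 63.9 in Exp2 and 27.1 to 32.3 in Exp1. Mitochondrially encoded genes took 19.1% to 26.6% of the counts in Exp3, 20.1% to 30.0% in Exp2 and 24.4% to 38.7% in Exp1. No pair of libraries held identical values. Levels below are CPM, counts scaled to 1e+06 per library after TMM scaling. A difference is the log2 ratio of fitted means from edgeR's quasi-likelihood test, positive where the first-named cohort is higher, and a gene is called where its Benjamini-Hochberg adjusted p over all genes tested is under 0.05.

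To compare levels between genes, CPM were divided by exon length and rescaled to sum to 1e+06. Mitochondrial transcripts led: mt-Co1, which encodes a core subunit of cytochrome c oxidase, had a length-scaled level of 114199 ± 8792 in Exp3, 130142 ± 13230 in Exp2 and 131552 ± 11933 in Exp1 (mean ± SD). mt-Cytb, the cytochrome of complex III, came next at 56039 ± 3557 in Exp3, 54546 ± 3390 in Exp2 and 60963 ± 4751 in Exp1. The most abundant nuclear genes were mostly those of working heart muscle, as the tissue label requires. The red cell genes Hbb-bs and Hba-a2 and the atrial gene Nppa were also among them. The 15 were Mb (myoglobin), Actc1, Myh6, Myl2, Hbb-bs, Fabp3, Atp2a2, Pln, Nppa, Slc25a4, Hba-a2, Myl3, Tnni3, Tnnc1 and Atp5a1. These 15 genes together made up 6.05% of the length-scaled total, with summed levels of 69384 in Exp3, 67096 in Exp2 and 35688 in Exp1. Myoglobin, the oxygen store of the cardiomyocyte, had a length-scaled level of 11164 ± 1070 in Exp3, 10012 ± 1165 in Exp2 and 4053 ± 1917 in Exp1. Myh6, the main motor myosin of the adult mouse heart, stood at 7341 ± 622 in Exp3, 7532 ± 2381 in Exp2 and 2377 ± 1459 in Exp1. In contrast, Atp2a2, the calcium pump of the sarcoplasmic reticulum, had length-scaled levels of 3458 ± 232 in Exp3, 4301 ± 812 in Exp2 and 3455 ± 374 in Exp1, and Pln, the inhibitor of that pump, of 2800 ± 260 in Exp3, 3210 ± 355 in Exp2 and 3559 ± 315 in Exp1. Mean Pln levels were thus in the opposite order over the cohorts from those of Mb. None of these length-scaled levels was adjusted for GC content, with which the differences from Exp1 varied, as given below. The CPM difference of Pln between the injected cohorts and Exp1 was -0.58 and called, but 0.07 and not called with an adjustment for GC content and length. Hemoglobin transcripts stood among the 15 in whole hearts, and their spread over hearts was wide: Hbb-bs had length-scaled levels of 4586 ± 3465 in Exp3, 6620 ± 3613 in Exp2 and 1074 ± 651 in Exp1.

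The injected cohorts and Exp1 differed across much of the transcriptome. Of 16519 genes tested, 5195 (31.4%) were called higher and 5351 (32.4%) lower in the injected cohorts than in Exp1, and 2963 genes (17.9%) had values that did not overlap between the 16 injected and the 5 other hearts. Exp3 and Exp2 differed in fewer genes, with 1981 (12.0%) called higher and 1798 (10.9%) lower in Exp3 and 1268 (7.68%) not overlapping. By single cohorts, 10234 genes (62.0%) were called in Exp3 against Exp1 and 9995 (60.5%) in Exp2 against Exp1, and 11763 (71.2%) in the test of any difference among the 3. A 2-fold size or more was reached by 1760 called rises and 378 called falls in the injected cohorts against Exp1, and by 424 rises and 105 falls in Exp3 against Exp2. The first 2 principal components held 37.4% and 18.4% of the variance of the 2000 most variable genes. Cohort accounted for 88.5% of the variance along the first and 92.2% along the second.

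The difference from Exp1 varied with the base composition and length of the transcripts. Over the 5 equal groups of genes from low to high transcript GC content, the median log2 difference of the injected cohorts against Exp1 was -0.56, -0.32, -0.05, 0.32 and 0.91. Genes called higher in the injected cohorts had a median GC content of 55.5% and a median exon length of 3570 bases, against 44.1% and 5347 bases for genes called lower. GC content and length together accounted for 51.5% of the variance of that difference across genes, and for 9.23% of the Exp3 against Exp2 difference. Within each heart, log2 CPM changed with 10 points of GC content by 0.19 to 0.36 in Exp3, -0.06 to 0.30 in Exp2 and -1.06 to -0.12 in Exp1, relative to the mean of the 21 hearts. Replicate 1 of Exp1 had the shallowest slope of its cohort, -0.12, where its 4 fellows ran from -1.06 to -0.50. Without that heart, 10859 genes were called in the injected cohorts against Exp1 and 4640 in Exp3 against Exp2, against 10546 and 3779 with it. Library preparation, RNA quality and biology cannot be told apart here, as none was measured apart from the cohort.

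For that reason gene differences of the injected cohorts against Exp1 and of Exp3 against Exp2 are followed by a GC-adjusted one, from a fit in which a smooth trend of each heart's log2 CPM on GC content and length was removed, and the text says where the call changed. This adjustment was chosen after the data were seen. That fit called 3189 genes (19.4% of 16461) higher and 3288 (20.0%) lower in the injected cohorts than in Exp1, and 5059 of these 6477 were also among the 10546 called without it. For Exp3 against Exp2 it called 2174 (13.2%) higher and 2404 (14.6%) lower, 4578 against 3779 without it, with 2913 in both. The median difference over all tested genes was -0.02 for the injected cohorts against Exp1 and -0.00 for Exp3 against Exp2, before the adjustment.

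**Figure D1:**
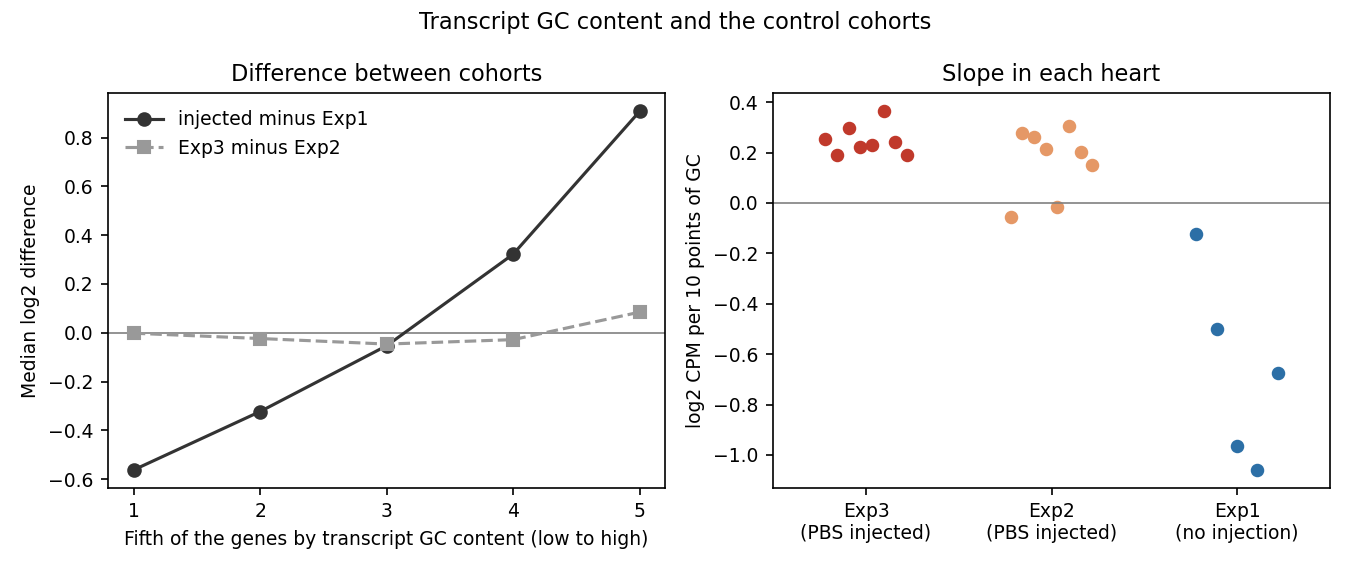
Left, median log2 difference (y axis) of genes in 5 equal groups by transcript GC content (x axis), for the injected cohorts minus Exp1 and for Exp3 minus Exp2. Right, the slope of each heart's log2 CPM per 10 points of GC content, 1 point per heart; the median difference from Exp1 runs from -0.56 to 0.91, and all 5 Exp1 hearts lie below 0.

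Clock genes separated the 2 injected cohorts. All 13 genes of the clock core list were tested; 2 were called higher and 8 lower in Exp3 than in Exp2, with a median log2 difference of -0.29, against 12.0% higher and 10.9% lower over all genes. The GC-adjusted counts were 3 higher and 9 lower, against 13.2% and 14.6%. Of the 8 genes of the clock output list, 4 were called lower and 0 higher, and the other 4 were not called. After the adjustment 3 of these 8 were lower and 0 higher.

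Arntl (ENSMUSG00000055116, chr7:113207465-113314126, plus strand, GRCm38) differed most of the list. It stood at 2.07 to 8.82 CPM in Exp3 (median 3.79), 0.665 to 1.26 CPM in Exp2 (median 0.952), and 2.29, 1.92, 2.30, 2.58 and 4.83 CPM in the 5 Exp1 hearts. Exp2 hearts formed a low group that overlapped neither other cohort, and the highest single value was in Exp3 replicate 6. Arntl was higher in Exp3 than in Exp2 (log2 difference 2.07 ± 0.27 (SE), adjusted p = 1.1e-05; GC-adjusted 2.13), while the injected cohorts together did not pass the test against Exp1 (log2 difference -0.50 ± 0.26 (SE), adjusted p = 0.1; GC-adjusted -0.35). Npas2, an alternative partner of Bmal1, was also higher in Exp3 (log2 difference 0.59 ± 0.13 (SE), adjusted p = 0.0018; GC-adjusted 0.66), at 1.82 to 2.82 CPM in Exp3 against 1.11 to 1.84 CPM in Exp2. Clock itself was not called between these cohorts (log2 difference 0.20 ± 0.08 (SE), adjusted p = 0.098), but was called with the GC adjustment (0.30, adjusted p = 0.0011).

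Cry1, Cry2, Per2, Per3 and Ciart, all repressors, ran the other way. Cry1 (ENSMUSG00000020038, chr10:85131700-85185064, minus strand) was at 5.09 to 7.85 CPM in Exp3 (median 6.53), 8.04 to 12.9 CPM in Exp2 (median 10.9), and 6.79, 8.39, 7.64, 7.43 and 6.72 CPM in the 5 Exp1 hearts. Every Exp2 heart was above every Exp3 heart, and Exp1 hearts lay among or just above the Exp3 values. The Cry1 difference of Exp3 against Exp2 was -0.69 ± 0.10 (SE), adjusted p = 3.1e-05, and -0.67 GC-adjusted. Per2 (ENSMUSG00000055866, chr1:91415982-91459324, minus strand) stood at 15.2 to 41.3 CPM in Exp3 (median 31.7), 40.8 to 56.9 CPM in Exp2 (median 49.1), and 20.4, 27.2, 28.1, 25.7 and 24.0 CPM in the 5 Exp1 hearts. Exp2 values were above all Exp1 values and met the Exp3 range only at its top (log2 difference -0.64 ± 0.15 (SE), adjusted p = 0.0031; GC-adjusted -0.53). Cry2 (-0.55; GC-adjusted -0.52), Per3 (-0.48; GC-adjusted -0.35) and Ciart (-0.59; GC-adjusted -0.61), which encodes a further repressor of the Clock and Bmal1 pair, were lower in Exp3 too, each called in both fits. Per1 was not called between the injected cohorts (log2 difference -0.29 ± 0.15 (SE), adjusted p = 0.19), whereas the GC-adjusted fit called it lower in Exp3 (-0.34, adjusted p = 0.049).

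Of the output genes Tef, Wee1 and Hlf were among the 4 called lower in Exp3. Tef was at 128 to 218 CPM in Exp3 (median 203), 249 to 319 CPM in Exp2 (median 289), and 207, 223, 179, 166 and 151 CPM in the 5 Exp1 hearts, with no overlap between Exp3 and Exp2 (log2 difference -0.61 ± 0.10 (SE), adjusted p = 1.9e-04; GC-adjusted -0.53). Wee1, a cell cycle kinase gene that the clock drives, was at 6.70 to 13.2 CPM in Exp3 (median 9.59), 15.03 to 20.3 CPM in Exp2 (median 16.5), and 10.8, 16.2, 19.6, 15.9 and 11.6 CPM in the 5 Exp1 hearts, again with no overlap between the injected cohorts (log2 difference -0.82 ± 0.14 (SE), adjusted p = 1.7e-04; GC-adjusted -0.78). Hlf was lower in Exp3 by the same test (-0.42, adjusted p = 0.016; GC-adjusted -0.34), and Dbp was not called (log2 difference 0.04 ± 0.14 (SE), adjusted p = 0.88; GC-adjusted -0.28). The repressor Nr1d1 did not pass the test (log2 difference 0.28 ± 0.19 (SE), adjusted p = 0.29; GC-adjusted 0.23).

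**Figure D2:**
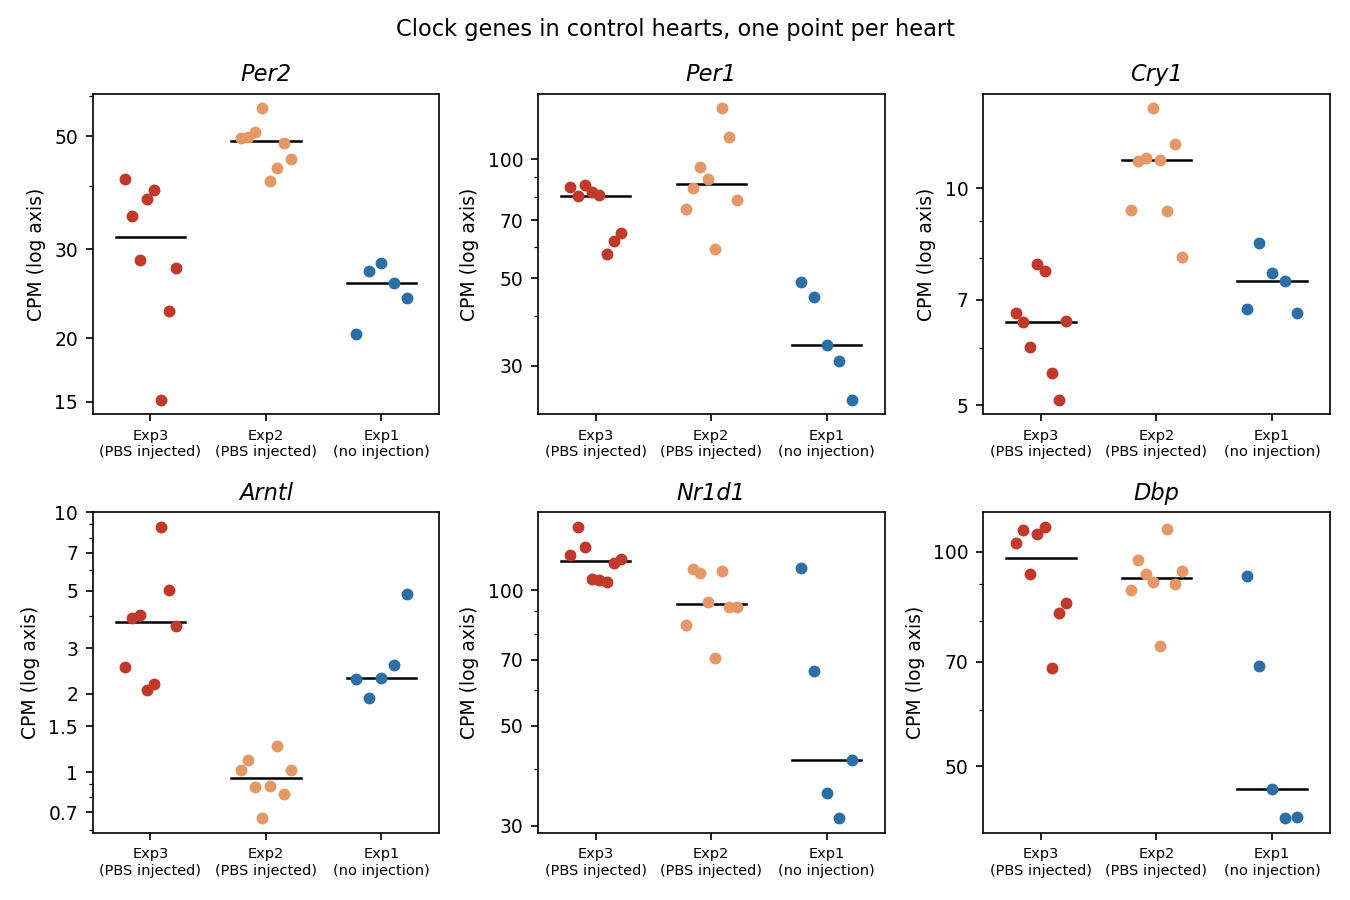
CPM on a log axis of 6 clock genes in each control heart, by cohort from Exp3 (left) through Exp2 to Exp1 (right); 1 point per heart and a line at the cohort median. The 8 Exp2 hearts are lowest for Arntl and above all Exp3 hearts for Cry1, and Exp1 hearts are lowest for Per1.

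Within Exp3 the clock genes also differed between hearts. Replicate 6 was the lowest of the 8 hearts for 8 of the 13 clock core genes and 6 of the 8 output genes. For Arntl the batch pairs had 2.07 and 2.18 CPM in dissection batch 1, 8.82 and 5.03 CPM in batch 2, 2.54 and 3.66 CPM in batch 3, and 3.92 and 4.04 CPM in batch 4. Per2 ran 37.6 and 39.2 CPM in batch 1, 15.2 and 22.6 CPM in batch 2, 41.3 and 27.6 CPM in batch 3, and 34.9 and 28.6 CPM in batch 4. Batch 2 thus held the 2 highest Arntl and the 2 lowest Per2 values. Tryptophan hearts of batch 2 likewise held the 2 lowest Per2 values of their group, 19.5 and 20.5 CPM, and batch 1 the 2 highest, 37.8 and 34.7 CPM. For Arntl the tryptophan hearts did not repeat the pattern: batch 2 had 5.14 and 6.12 CPM, but the highest value, 6.31 CPM, was in batch 3 and another of 5.63 CPM in batch 4. The controls of batch 2, replicates 6 and 7, also had the steepest length trends of Exp3. Their log2 CPM changed per 10-fold transcript length by -0.80 and -0.55, relative to the mean of the 21 hearts. The other Exp3 controls ran from -0.43 to -0.21. The part of this trend in the batch differences was not tested. With 2 controls per batch, 108 of 16966 genes (0.637%) differed among dissection batches, 2726 at an unadjusted p under 0.05, and no clock core gene was among the 108. That count was 12 without replicate 3 or replicate 6, 280 without replicate 7, 35 after the GC adjustment and 1106 by DESeq2. In the 16 Exp3 hearts with treatment as a term, 128 of 16541 genes (0.774%) were called among dissection batches, of which 17 were among the 108. Clock core genes made up 3 of the 128: Per1 (adjusted p = 0.026), Cry1 (adjusted p = 0.027) and Cry2 (adjusted p = 0.049).

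Against Exp1, the clock genes gave a different picture before and after the GC adjustment. Per1, which responds to glucocorticoids as well as to the clock, was at 57.4 to 86.1 CPM in Exp3 (median 80.7), 59.4 to 135 CPM in Exp2 (median 86.6), and 49.0, 44.9, 33.8, 30.9 and 24.6 CPM in the 5 Exp1 hearts. All 16 injected hearts were above all 5 Exp1 hearts (log2 difference 1.17 ± 0.17 (SE), adjusted p = 4.1e-06), yet the GC-adjusted difference was 0.09 and was not called. Dbp likewise had a difference of 0.67 against Exp1 that turned to -0.65 with the adjustment. Over the clock core list 5 genes were called higher and 3 lower of 13 in the injected cohorts (median 0.25), against 31.4% and 32.4% over all genes, and 1 higher and 2 lower after the adjustment, against 19.4% and 20.0%.

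Exp2 and Exp1 each also held naproxen-fed females. In controls Per2 was higher in Exp2 than in Exp1 (log2 difference 0.94 ± 0.17 (SE), adjusted p = 8.5e-05), whereas in naproxen hearts it was 35.1 to 49.7 CPM (median 45.2) in Exp2 against 42.9 to 51.1 CPM (median 48.4) in Exp1 (log2 difference -0.04 ± 0.09 (SE), adjusted p = 0.76; GC-adjusted -0.41 and called, adjusted p = 0.014). The 2 differences themselves differed by 0.98 ± 0.13 (SE; edgeR interaction, adjusted p = 6.7e-04). Per2 was the only gene called in that test, 1 of 16174 (0.00618%). With the GC adjustment the Per2 value was 0.82 and was not called (adjusted p = 0.51). Arntl was lower in Exp2 than in Exp1 among controls (log2 difference -1.54 ± 0.30 (SE), adjusted p = 1.5e-04) and stood at 0.650 to 2.07 CPM (median 1.03) in Exp2 against 0.849 to 1.26 CPM (median 0.986) in Exp1 among naproxen hearts. Its interaction did not pass the test (log2 difference -1.75 ± 0.35 (SE), adjusted p = 0.12).

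Of the glucocorticoid-responsive genes more were called higher than lower in the injected cohorts. All 14 genes of the list were tested, of which 9 were called higher and 2 lower, against 31.4% and 32.4% over all genes, with a median log2 difference of 1.06 against -0.02 over all genes. After the GC adjustment 8 were called higher and 1 lower, against 19.4% and 20.0%, with a median of 0.51. Mt1 (ENSMUSG00000031765, chr8:94179082-94180327, plus strand), which encodes the metal-binding metallothionein 1, was at 55.7 to 80.9 CPM in Exp3 (median 64.8), 32.9 to 57.7 CPM in Exp2 (median 47.5), and 19.5, 12.7, 11.7, 12.5 and 16.8 CPM in the 5 Exp1 hearts. The 16 injected hearts were all above the 5 Exp1 hearts (log2 difference 1.92 ± 0.15 (SE), adjusted p = 4.6e-09; GC-adjusted 1.45). Map3k6, a stress-activated kinase gene, stood at 12.0 to 24.0 CPM in Exp3 (median 14.7), 14.0 to 25.1 CPM in Exp2 (median 19.4), and 4.44, 3.41, 3.76, 3.31 and 5.07 CPM in the 5 Exp1 hearts. Here too the groups did not overlap (log2 difference 2.11 ± 0.18 (SE), adjusted p = 1.2e-08; GC-adjusted 1.00), and Exp3 and Exp2 did not differ by the test (log2 difference -0.24 ± 0.14 (SE), adjusted p = 0.25; GC-adjusted -0.32).

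Klf15, a regulator of amino acid and lipid use in heart, was between 46.5 and 76.0 CPM in Exp3 hearts (median 56.6) and between 36.7 and 64.7 CPM in Exp2 hearts (median 49.5), against 23.2, 19.8, 17.2, 14.5 and 18.5 CPM in Exp1 hearts. No Exp1 heart reached the lowest injected one (log2 difference 1.54 ± 0.13 (SE), adjusted p = 1.7e-08; GC-adjusted 1.00). Fkbp5, the co-chaperone that dampens the glucocorticoid receptor, was at 15.1 to 36.7 CPM in Exp3 (median 18.3), 17.1 to 52.3 CPM in Exp2 (median 31.3), and 10.00, 9.30, 14.6, 13.9 and 13.7 CPM in the 5 Exp1 hearts. Its injected hearts all exceeded the Exp1 hearts but by a narrow margin (log2 difference 1.13 ± 0.25 (SE), adjusted p = 5.4e-04; GC-adjusted 1.03). Zbtb16, a transcription factor gene, was at 28.7 to 90.5 CPM in Exp3, 54.6 to 206 CPM in Exp2, and 20.7, 29.8, 25.3, 37.8 and 33.4 CPM in Exp1. It was called against Exp1 (log2 difference 1.36 ± 0.31 (SE), adjusted p = 6.3e-04; GC-adjusted 0.98) with overlapping groups, and was lower in Exp3 than in Exp2 (log2 difference -1.14 ± 0.28 (SE), adjusted p = 0.0049; GC-adjusted -1.04).

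Among the stress genes named for the size of their difference, several were highest in Exp3. Cebpd, a transcription factor of the acute-phase response, was at 7.25 to 10.9 CPM in Exp3 (median 9.16), 1.75 to 4.42 CPM in Exp2 (median 2.19), and 1.21, 0.872, 1.78, 1.69 and 2.26 CPM in the 5 Exp1 hearts. Exp3 hearts stood clear of both other cohorts (log2 difference 1.84 ± 0.18 (SE), adjusted p = 3.9e-07 against Exp2; GC-adjusted 1.89). Junb, an immediate early gene of the AP-1 family, was at 10.2 to 13.2 CPM in Exp3 (median 11.3), 1.15 to 4.10 CPM in Exp2 (median 3.16), and 2.25, 0.581, 0.356, 0.308 and 0.304 CPM in the 5 Exp1 hearts, with Exp3 again clear of the rest (log2 difference 1.99 ± 0.28 (SE), adjusted p = 3.0e-05 against Exp2; GC-adjusted 1.64). Within Exp1 the highest Junb value was that of replicate 1, the heart with the shallow GC slope. Lrg1, a leucine-rich glycoprotein of the acute phase, was at 13.8 to 21.9 CPM in Exp3 (median 18.5), 7.70 to 13.7 CPM in Exp2 (median 12.7), and 2.91, 2.54, 1.15, 1.46 and 2.43 CPM in the 5 Exp1 hearts, and all 3 cohorts were separate (log2 difference 2.76 ± 0.20 (SE), adjusted p = 2.7e-09 against Exp1; GC-adjusted 1.27). Gadd45g, a stress-induced growth arrest gene, showed the same order, with cohort medians of 7.53 CPM in Exp3, 4.18 CPM in Exp2 and 0.690 CPM in Exp1 (log2 difference 3.00 ± 0.29 (SE), adjusted p = 4.7e-08 against Exp1; GC-adjusted 1.73).

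Immediate early genes as a whole gave 5 higher and 2 lower calls in Exp3 against Exp2, of 21 tested (median 0.19), against 12.0% and 10.9% over all genes. Against Exp1 there were 6 higher and 6 lower calls, near the 31.4% and 32.4% over all genes, and after the GC adjustment 2 higher and 10 lower, against 19.4% and 20.0%.

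Among the glucocorticoid-responsive genes Pdk4 went against the list. Pdk4, the kinase that shuts carbohydrate out of the mitochondrion and that fasting also induces, was at 77.4 to 322 CPM in Exp3 (median 137), 134 to 369 CPM in Exp2 (median 197), and 241, 538, 497, 791 and 792 CPM in the 5 Exp1 hearts. The injected cohorts were lower than Exp1 (log2 difference -1.68 ± 0.29 (SE), adjusted p = 3.4e-05; GC-adjusted -1.31), with overlap at the upper end of the injected range. Naproxen hearts, compared in the same way between Exp2 and Exp1, differed in 7766 of 15273 genes tested (50.8%). Mt1 was 41.8 to 85.0 CPM (median 61.0) in Exp2 naproxen hearts and 15.2 to 36.9 CPM (median 17.9) in Exp1 naproxen hearts (log2 difference 1.55 ± 0.25 (SE), adjusted p = 1.8e-04; GC-adjusted 1.15). Klf15 differed there by 0.90 (GC-adjusted 0.41), called in both fits. Lrg1 differed by 1.69 and Map3k6 by 1.09, each called, but by 0.47 and 0.19 after the GC adjustment, neither called. Fkbp5 was 33.9 to 55.4 CPM (median 38.7) in Exp2 naproxen hearts and 16.1 to 53.0 CPM (median 37.6) in Exp1 naproxen hearts, and was not called (log2 difference 0.33 ± 0.27 (SE), adjusted p = 0.33). These hearts share cohort and injection with the controls, so they are a comparison in other mice that does not separate the 2.

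**Figure D3:**
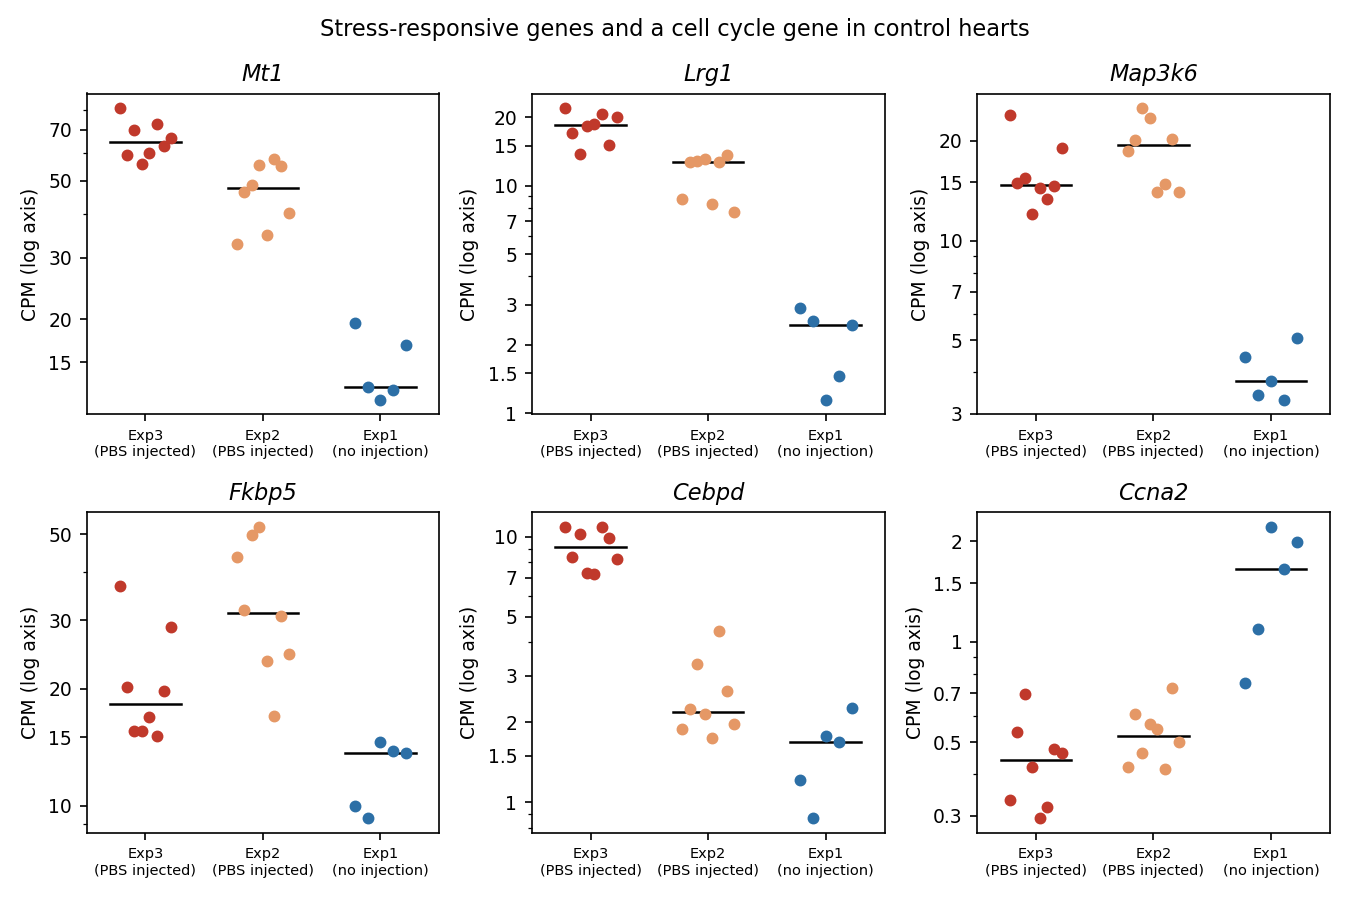
CPM on a log axis of 5 stress-responsive genes and the cell cycle gene Ccna2 in each control heart, Exp3, Exp2 and Exp1 from left to right; 1 point per heart and a line at the cohort median. Mt1, Lrg1, Map3k6 and Fkbp5 are higher in all 16 injected hearts than in any Exp1 heart, Cebpd stands out in Exp3, and Ccna2 is higher in all 5 Exp1 hearts.

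Blood transcripts varied between hearts of a cohort as well as between cohorts. Hba-a1, which encodes an alpha chain of hemoglobin, was at 328 to 871 CPM in Exp3 (median 466), 283 to 1504 CPM in Exp2 (median 748), and 204, 146, 34.9, 30.2 and 53.4 CPM in the 5 Exp1 hearts. The Exp2 hearts fell into a high set, replicates 3, 4, 6 and 8, and a low set that overlapped Exp3. For Hba-a1 taken alone, every Exp1 heart was below every injected one. Against Exp1 Hba-a1 was called (log2 difference 2.81 ± 0.52 (SE), adjusted p = 9.9e-05; GC-adjusted 1.82), and its near-identical copy Hba-a2 was not (log2 difference 0.72 ± 0.34 (SE), adjusted p = 0.067; GC-adjusted -0.51), and reads shared between the copies leave both values uncertain. Summed over the 2 copies, the hearts had 797 to 2081 CPM in Exp3 (median 1135), 765 to 3663 CPM in Exp2 (median 1859) and 532 to 997 CPM in Exp1 (median 639). The sum thus overlapped between the injected and the Exp1 hearts. Hbb-bs, the main adult beta chain, was at 798 to 4001 CPM in Exp3 (median 1090.1), 759.7 to 4885 CPM in Exp2 (median 2445), and 700.5, 784, 275, 284 and 439.8 CPM in the 5 Exp1 hearts, with the groups overlapping (log2 difference 2.13 ± 0.49 (SE), adjusted p = 7.1e-04; GC-adjusted 1.72).

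Alas2, the red-cell enzyme that starts heme synthesis, marks young red cells. It was at 19.0 to 48.5 CPM in Exp3 (median 25.1), 30.4 to 143 CPM in Exp2 (median 79.1), and 40.1, 57.7, 34.3, 26.1 and 34.4 CPM in the 5 Exp1 hearts. Exp3 was lower than Exp2 (log2 difference -1.49 ± 0.30 (SE), adjusted p = 0.0013; GC-adjusted -1.53) although the ranges met. Of the 9 erythroid genes tested, 3 were called lower and 0 higher in Exp3 than in Exp2 (median -0.61), against 10.9% and 12.0% over all genes. After the GC adjustment 5 were lower and 0 higher (median -1.01), against 14.6% and 13.2%. In the injected cohorts against Exp1, 3 were called higher and 0 lower (median 0.40), where 31.4% and 32.4% of all genes were. After the adjustment 4 were higher and 0 lower, where 19.4% and 20.0% of all genes were. Exp2 replicates 3, 4, 6 and 8 held the 4 highest values of the cohort for 8 of these 9 genes. The same 4 hearts held the 4 highest values for 5 of the 8 platelet genes, and at least 3 of the 4 highest for all 8.

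Red cell genes also differed among the dissection batches of Exp3. Alas2 had 39.4 and 48.5 CPM in batch 2, against 19.9 and 19.0 CPM in batch 1, 29.2 and 26.1 CPM in batch 3, and 24.0 and 22.4 CPM in batch 4 (adjusted p = 0.0093 among batches). Tryptophan hearts of batch 2 were likewise the highest of their group for Alas2, 36.7 and 49.2 CPM, with the other 6 between 18.2 and 27.7 CPM. Hba-a1, Hba-a2 and Hbb-bt, a second beta chain gene, were also highest in those tryptophan hearts. Hbb-bs was not: those hearts had 3081 and 1716 CPM, and a tryptophan heart of batch 1 had 1996 CPM. In the test among batches of the controls, Hba-a1, Hba-a2 and Hbb-bt were among the 8 genes with the smallest p. Of the 9 erythroid genes 5 were called in it, against 0.637% over all genes. Its count of calls changed widely with single hearts left out or with the GC adjustment, as given above. With 4 residual degrees of freedom that test rests on the agreement of mates within a batch. Batch 2 also held the controls with the steepest length trends of Exp3, as given above, and their part in the red cell result was not tested.

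Platelet genes were lower in Exp3 than in Exp2, with a median of -1.33 (-1.57 GC-adjusted). In both fits 5 of the 8 tested were called lower and 0 higher, against 10.9% and 12.0% over all genes, or 14.6% and 13.2% GC-adjusted. Ppbp, the platelet basic protein gene, was at 0.312 to 0.676 CPM in Exp3 (median 0.529), 0.767 to 2.97 CPM in Exp2 (median 1.81), and 1.40, 2.11, 1.50, 1.12 and 4.32 CPM in the 5 Exp1 hearts. All Exp3 hearts were below all other hearts (log2 difference -1.88 ± 0.30 (SE), adjusted p = 9.4e-05 against Exp2; GC-adjusted -2.12). Tubb1, the platelet beta tubulin, had 0.155 to 0.308 CPM in Exp3 against 0.367 to 1.51 CPM in Exp2, also without overlap (log2 difference -1.87 ± 0.34 (SE), adjusted p = 3.7e-04; GC-adjusted -1.95). Itga2b, a subunit of the fibrinogen receptor, was lower in Exp3 as well (log2 difference -0.88 ± 0.23 (SE), adjusted p = 0.0089; GC-adjusted -0.94). Pf4, which heart macrophages can also express, was not called (log2 difference 0.40 ± 0.16 (SE), adjusted p = 0.079; GC-adjusted 0.01), at 7.00 to 10.1 CPM in Exp3 and 4.81 to 9.80 CPM in Exp2.

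Neutrophil genes went the other way, at levels of a few CPM. Of 11 listed genes 5 passed the filter on low counts, and 3 were called higher in Exp3 than in Exp2 and 0 lower in both fits. Over all genes the shares were 12.0% and 10.9%, or 13.2% and 14.6% GC-adjusted. The other listed genes, near 0 in most hearts, were not tested. S100a8, a calcium-binding protein of neutrophils, was at 0.311 to 5.37 CPM in Exp3 (median 1.49), 0.146 to 0.865 CPM in Exp2 (median 0.445), and 0.719, 0.726, 1.43, 0.616 and 4.39 CPM in the 5 Exp1 hearts. The ranges overlapped, with the highest values in Exp3 replicates 1 and 6 (log2 difference 2.36 ± 0.59 (SE), adjusted p = 0.0061; GC-adjusted 1.76). S100a9, its partner, and the chemokine receptor gene Cxcr2 were called too, by 2.09 (GC-adjusted 1.57) and 1.51 (GC-adjusted 1.49). Exp1 replicate 5 was the highest of its cohort for all 5 genes.

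Lymphocyte and antigen-presentation lists had negative medians in Exp3 against Exp2, where 10.9% of all genes were called lower, or 14.6% after the GC adjustment. Of 12 B cell genes 3 were called lower and 0 higher (median -0.88), and 6 lower and 0 higher after the adjustment. Of 7 MHC class II genes 4 were called lower and 0 higher (median -0.75), and 5 lower and 0 higher after it. Of 12 T and NK cell genes 2 were lower and 0 higher (median -0.57), and 3 lower and 0 higher after it. Cd74, the invariant chain that escorts MHC class II, was at 38.3 to 105 CPM in Exp3 (median 48.9), 58.3 to 179 CPM in Exp2 (median 105), and 95.1, 53.7, 32.8, 30.4 and 64.9 CPM in the 5 Exp1 hearts, with overlapping ranges (log2 difference -0.91 ± 0.28 (SE), adjusted p = 0.021; GC-adjusted -1.06), and without Exp2 replicate 5 its difference was -0.75 and not called.

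Ighm, the heavy chain of IgM, ranged over the 21 hearts from 5.05 to 107 CPM and was not called in either comparison (log2 difference -1.05 ± 0.64 (SE), adjusted p = 0.26 for Exp3 against Exp2; GC-adjusted -1.16). Exp3 replicate 7 was the highest of its cohort for 7 of the 12 B cell genes, 8 of the 12 macrophage genes and 10 of the 16 interferon-stimulated genes. Exp2 replicate 5 was the highest of its cohort for 8 B cell genes, 8 macrophage genes and 10 interferon-stimulated genes, and Exp1 replicate 5 for 6, 5 and 12. By that tally the 3 lists peaked in the same heart of each cohort, but by summed CPM the interferon-stimulated list was highest in Exp2 replicate 7 (199 CPM). The tallies are a description over genes that share their libraries. Macrophage genes themselves gave 0 higher and 3 lower calls in Exp3 against Exp2, of 12 and in both fits, with a median of -0.10. Over all genes the shares were 12.0% and 10.9%, or 13.2% and 14.6% GC-adjusted.

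Interferon-stimulated genes were split against Exp1, with 4 called higher and 9 lower of 16 (median -0.36), where 31.4% and 32.4% of all genes were. After the GC adjustment 0 were higher and 5 lower (median -0.26), where 19.4% and 20.0% of all genes were. Ifi44, an interferon-induced gene, was at 1.71 to 3.53 CPM in Exp3 (median 2.19), 1.79 to 2.89 CPM in Exp2 (median 2.47), and 3.56, 4.83, 6.61, 6.58 and 8.34 CPM in the 5 Exp1 hearts. Every injected heart was below every Exp1 heart (log2 difference -1.29 ± 0.17 (SE), adjusted p = 1.2e-06; GC-adjusted -0.70). Oasl2, an antiviral gene of the same response, was lower in the injected cohorts too (log2 difference -0.66 ± 0.15 (SE), adjusted p = 4.8e-04; GC-adjusted -0.58). Mrc1, the mannose receptor of resident macrophages, was at 18.2 to 26.1 CPM in Exp3 and 21.1 to 26.0 CPM in Exp2, against 33.1, 33.5, 55.1, 38.8 and 42.7 CPM in Exp1, without overlap (log2 difference -0.85 ± 0.10 (SE), adjusted p = 2.0e-07; GC-adjusted -0.38). C1qa, a complement gene of the same cells, had a difference of 1.15 that became -0.13 with the adjustment.

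**Figure D4:**
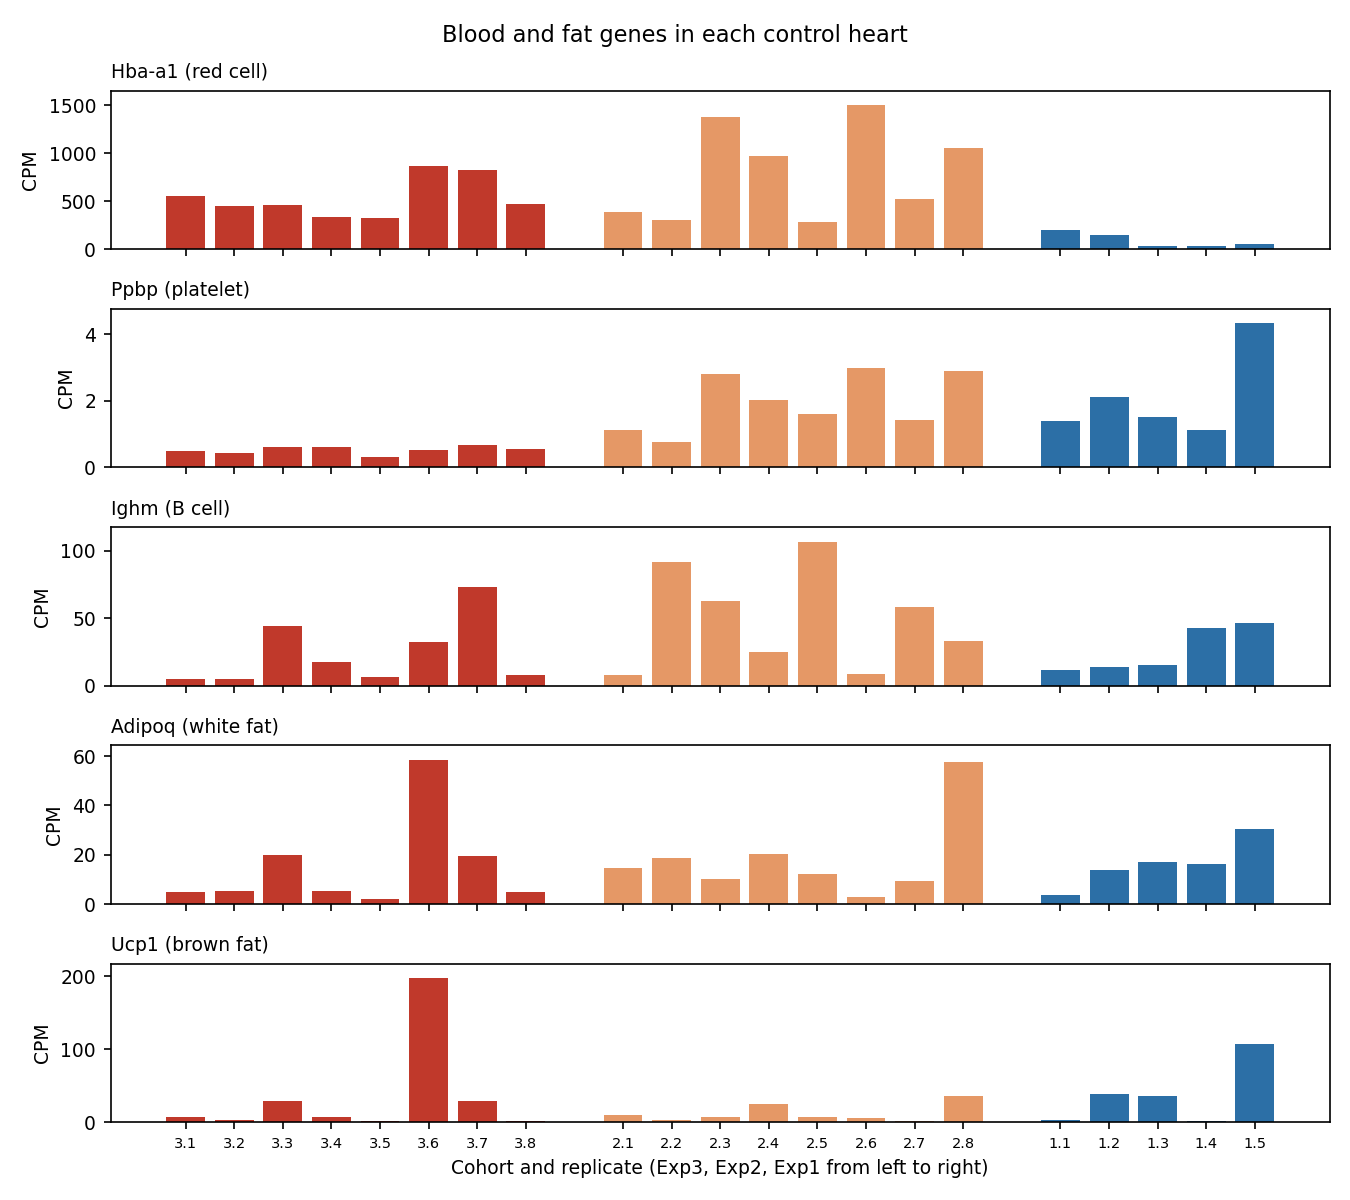
CPM of a red cell, a platelet, a B cell, a white fat and a brown fat gene in each control heart, with bars from 0; labels give cohort and replicate, Exp3 to the left, then Exp2, then Exp1. Within Exp2, Hba-a1 and Ppbp peak in the same 4 hearts (2.3, 2.4, 2.6 and 2.8), and Adipoq peaks in hearts 3.6, 2.8 and 1.5.

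Fat genes differed widely between single hearts. The median within-cohort SD of log2 CPM was 1.28 over the white adipocyte list and 1.92 over the brown, against 0.24 over all tested genes. Adipoq (ENSMUSG00000022878, chr16:23146536-23158028, plus strand), which encodes adiponectin and is made by adipocytes, was at 2.21 to 58.5 CPM in Exp3 (median 5.43), 2.99 to 57.8 CPM in Exp2 (median 13.3), and 3.59, 13.6, 16.9, 16.1 and 30.2 CPM in the 5 Exp1 hearts. One heart stood above the rest in Exp3 (replicate 6) and in Exp2 (replicate 8), and the cohorts overlapped throughout. It was called neither against Exp1 (log2 difference 0.05 ± 0.67 (SE), adjusted p = 0.96; GC-adjusted -0.01) nor between Exp3 and Exp2 (log2 difference -0.28 ± 0.64 (SE), adjusted p = 0.8; GC-adjusted -0.43). Cfd, the adipocyte serine protease adipsin, was at 5.36 to 94.1 CPM in Exp3 (median 12.4), 9.39 to 184 CPM in Exp2 (median 35.4), and 5.91, 9.99, 10.6, 9.12 and 19.1 CPM in the 5 Exp1 hearts. Exp2 replicate 8 was again the highest heart of its cohort, and the call against Exp1 (log2 difference 1.91 ± 0.73 (SE), adjusted p = 0.028) had a GC-adjusted difference of 0.50, not called, and was lost on leaving out any of Exp1 replicates 1 to 4 (between 1.81 and 1.899).

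Of the 14 white adipocyte genes, all tested, 0 were called higher and 1 lower in Exp3 than in Exp2, and 3 higher and 1 lower in the injected cohorts than in Exp1, shares below those over all genes. The same hearts led across the list: Exp3 replicate 6 was the highest of its cohort for 12 of the 14, Exp2 replicate 8 for 12 and Exp1 replicate 5 for 11. The lowest hearts were as regular, Exp3 replicate 5 for 12, Exp2 replicate 6 for 12 and Exp1 replicate 1 for 12. Ucp1, the uncoupling protein of brown fat, was at 1.21 to 197 CPM in Exp3 (median 7.00), 1.97 to 36.2 CPM in Exp2 (median 7.33), and 2.65, 38.5, 36.0, 2.50 and 107 CPM in the 5 Exp1 hearts, peaking in Exp3 replicate 6 and in Exp1 replicate 5. Mesothelial genes peaked in these hearts as well, Exp3 replicate 6 for 8 of 9, Exp2 replicate 8 for 8 and Exp1 replicate 5 for 7.

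Lipid-making genes followed. Scd1, which desaturates fatty acids, was at 152 to 2527 CPM in Exp3 (median 274), 26.0 to 978 CPM in Exp2 (median 225), and 77.7, 387, 399, 681 and 1446 CPM in the 5 Exp1 hearts. Exp3 replicate 6 was the highest of its cohort for 11 of 11 fatty acid synthesis genes, Exp2 replicate 8 for 6 and Exp1 replicate 5 for 7. Of 18 cholesterol synthesis genes Exp3 replicate 6 was the highest for 15 and Exp2 replicate 8 for 11. In Exp1, replicate 1 was most often the highest, for 7. Exp3 replicate 6 was also the highest for 22 of 31 nuclear respiratory chain genes, so its lead was not confined to lipid genes. Fasn, fatty acid synthase, had 1019 CPM in that heart and 555 CPM in Exp2 replicate 8, with a range of 24.0 to 1019 CPM over all 21. Plin4, a lipid droplet coat gene that muscle also expresses, differed by cohort. It was at 208 to 330.2 CPM in Exp3 (median 266), 341 to 496 CPM in Exp2 (median 423), and 190.4, 198, 151, 133 and 162 CPM in the 5 Exp1 hearts, and its 3 cohorts did not overlap. It was lower in Exp3 than in Exp2 (log2 difference -0.65 ± 0.11 (SE), adjusted p = 1.8e-04; GC-adjusted -0.56) and higher in the injected cohorts than in Exp1 (log2 difference 1.02 ± 0.12 (SE), adjusted p = 2.9e-07; GC-adjusted 0.37).

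Atrial genes marked single hearts in the same manner. Nppa, the atrial natriuretic peptide gene, was at 1263 to 1705 CPM in Exp3 (median 1420.2), 536 to 3054 CPM in Exp2 (median 1177), and 3247, 417, 203, 386 and 441 CPM in the 5 Exp1 hearts. Exp1 replicate 1 was far above its cohort and the highest of it for 6 of 6 atrial genes, and Exp2 replicate 8 was the highest of its cohort for 5 of 6. Nppa was not called against Exp1 (log2 difference 0.58 ± 0.48 (SE), adjusted p = 0.3; GC-adjusted -0.05). Sln, the atrial inhibitor of the calcium pump, had 204 CPM in Exp1 replicate 1 and 350.0 CPM in Exp2 replicate 8, within a range of 57.4 to 350.0 CPM.

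Genes of airway lining stood out in 2 hearts. They were picked after their values were seen. Bpifa1, an airway surface protein gene, had 19.0 CPM in Exp3 replicate 6 and 56.3 CPM in Exp2 replicate 4 and 0 in the other 19 hearts. Scgb1a1, the club cell secretoglobin, had 19.4 and 37.5 CPM in the same hearts, 0.145 CPM in Exp1 replicate 2 and 0 elsewhere. A count of 0 allows up to 0.0420 to 0.0597 CPM in Exp3, 0.0463 to 0.0682 CPM in Exp2 and 0.0980 to 0.119 CPM in Exp1, from 3 counts per heart and for counting error only. Sftpc, a defining gene of lung alveoli, was at or near 0 in all hearts, with a highest value of 0.0398 CPM. None of the 6 lung list genes passed the filter. Exp3 replicate 6 is also the fat-rich heart and the one with low clock genes; its airway transcripts' part in those results was not tested.

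Heart muscle genes separated the injected cohorts from Exp1. Of 20 sarcomere and calcium-handling genes, all tested, 12 were called higher and 3 lower in the injected cohorts (median 0.46), against 31.4% and 32.4% over all genes, and 9 higher and 0 lower after the GC adjustment, against 19.4% and 20.0% (median 0.21). Myl3 (ENSMUSG00000059741, chr9:110741861-110769798, plus strand), the ventricular essential light chain, was at 3040.4 to 4789 CPM in Exp3 (median 4084), 2291 to 3084 CPM in Exp2 (median 2475), and 1416, 1200.4, 642, 721 and 783 CPM in the 5 Exp1 hearts. The groups did not overlap (log2 difference 1.75 ± 0.15 (SE), adjusted p = 1.7e-08; GC-adjusted 1.47), and Exp3 was higher than Exp2 with ranges that met (log2 difference 0.66 ± 0.13 (SE), adjusted p = 0.0012; GC-adjusted 0.50). Myh6 was at 21843 to 28005 CPM in Exp3 (median 26862), 16678 to 31174 CPM in Exp2 (median 28025), and 15124, 12386, 6439.5, 6774 and 7171 CPM in the 5 Exp1 hearts, again without overlap between the injected hearts and Exp1 (log2 difference 1.42 ± 0.19 (SE), adjusted p = 1.7e-06; GC-adjusted 0.76).

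Myh7, the slow myosin of the fetal and stressed heart, behaved otherwise. It was at 49.3 to 120.4 CPM in Exp3 (median 89.9), 92.7 to 309 CPM in Exp2 (median 219), and 72.6, 63.0, 20.3, 33.0 and 18.7 CPM in the 5 Exp1 hearts. Exp2 was the highest cohort, Exp3 was lower than Exp2 (log2 difference -1.21 ± 0.29 (SE), adjusted p = 0.0049; GC-adjusted -1.12), and the injected cohorts were higher than Exp1 (log2 difference 1.72 ± 0.33 (SE), adjusted p = 1.3e-04; GC-adjusted 1.12). Nnt, the proton-driven transhydrogenase of the inner mitochondrial membrane, was at 131 to 286 CPM in Exp3 (median 247), 63.2 to 183 CPM in Exp2 (median 167), and 72.1, 77.1, 16.7, 26.2 and 49.6 CPM in the 5 Exp1 hearts. It was higher in the injected cohorts than in Exp1 (log2 difference 1.86 ± 0.34 (SE), adjusted p = 7.8e-05; GC-adjusted 1.95), with overlap at the low end of Exp2. C57BL/6J mice are known to carry a deletion within this gene, and the level here counts all its transcripts.

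Respiratory chain genes are encoded in the nucleus and in the mitochondrion. Of 32 rows of nuclear respiratory chain genes, 18 were called higher and 4 lower in the injected cohorts than in Exp1, against 31.4% and 32.4% over all genes, and 13 higher and 4 lower after the adjustment, against 19.4% and 20.0% (median 0.41; 0.16 GC-adjusted). Of the 13 mitochondrially encoded genes 0 were higher and 11 lower, and 1 higher and 5 lower after it (median -0.64; -0.19 GC-adjusted). The mt-Co1 difference from Exp1, -0.45, turned to 0.03 with the adjustment, and the difference between the 2 lists was not tested. Uqcrq, a small subunit of complex III, was at 304 to 719.9 CPM in Exp3 (median 420.1), 106 to 199 CPM in Exp2 (median 138), and 61.7, 43.0, 38.6, 45.2 and 47.4 CPM in the 5 Exp1 hearts. All 3 cohorts were separate (log2 difference 2.43 ± 0.20 (SE), adjusted p = 7.4e-09 against Exp1, GC-adjusted 2.31; log2 difference 1.63 ± 0.17 (SE), adjusted p = 5.4e-07 for Exp3 against Exp2, GC-adjusted 1.55). Small subunits of this kind (Uqcr11, Ndufb7 and Uqcr10) were among the 10 largest rises against Exp1 that the naming rule took. The 10 were Dpm3, Tpgs1, Gadd45g, Uqcr11, Znrd2, Timm13, Hba-a1, Ndufb7, Uqcr10 and Lrg1. The Hba-a1 value is uncertain because its copy Hba-a2 shares reads with it, as given above. The GC-adjusted differences of the 10 genes ran from 1.27 for Lrg1 to 3.39 for Dpm3. The 10 were taken for their size in these same hearts, so their positive sign after the adjustment is no separate support.

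A few mitochondrial transcripts and nuclear non-coding RNAs set Exp3 apart from Exp2. Of the 13 mitochondrially encoded genes 2 were called higher and 2 lower in Exp3 (median -0.02), against 12.0% and 10.9% over all genes. After the GC adjustment 2 were higher and 4 lower (median -0.21), against 13.2% and 14.6%. mt-Atp6, a subunit of ATP synthase, was at 7686 to 13490.4 CPM in Exp3 (median 9984), 2157 to 4465 CPM in Exp2 (median 2659.8), and 3184, 4522, 4422, 7544 and 4763 CPM in the 5 Exp1 hearts. Exp3 was above all hearts of both other cohorts, by a narrow margin over Exp1 (log2 difference 1.82 ± 0.17 (SE), adjusted p = 1.8e-07; GC-adjusted 1.50), while mt-Co1 was not called (log2 difference -0.21 ± 0.14 (SE), adjusted p = 0.31), except that the GC-adjusted fit called it lower in Exp3 (-0.32, adjusted p = 0.029). mt-Nd6, the one protein gene on the other mitochondrial strand, also differed without overlap (log2 difference 2.45 ± 0.26 (SE), adjusted p = 9.8e-07; GC-adjusted 2.03). Malat1, a long nuclear RNA, was at 1537 to 2444 CPM in Exp3 (median 1753), 336 to 432 CPM in Exp2 (median 382), and 428, 494, 447, 637 and 591 CPM in the 5 Exp1 hearts, Exp3 clear of both other cohorts (log2 difference 2.30 ± 0.11 (SE), adjusted p = 1.8e-12; GC-adjusted 2.38). Rn7sk, a small nuclear RNA without a poly(A) tail, was at 17.3 to 88.2 CPM in Exp3 (median 37.4), 0.463 to 1.50 CPM in Exp2 (median 0.788), and 2.94, 0.617, 0.515, 1.50 and 1.28 CPM in the 5 Exp1 hearts (log2 difference 5.73 ± 0.43 (SE), adjusted p = 2.2e-08; GC-adjusted 4.86). Processed pseudogenes were more often called higher than lower. Of 459 tested, 252 were called higher in Exp3 than in Exp2 and 20 lower, against 12.0% and 10.9% over all genes. These counts are before the GC adjustment. Among the shortest of 5 equal groups of genes by transcript length, 26.6% were called higher and 3.97% lower. Single pseudogenes went the other way, such as Tpt1-ps3 with a mean of 0 CPM in Exp3 and 115 CPM in Exp2.

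Of 13 heat shock genes tested, 2 were called higher and 9 lower in the injected cohorts than in Exp1 (median -0.77), against 31.4% and 32.4% over all genes. The GC-adjusted fit gave 1 higher and 9 lower (median -0.36), against 19.4% and 20.0%. In Exp3 against Exp2, 6 were called higher and 0 lower, against 12.0% and 10.9%. After the GC adjustment 8 were higher and 1 lower, against 13.2% and 14.6%. Hsp90aa1, the stress-inducible form of the chaperone Hsp90, was at 112 to 153 CPM in Exp3 (median 126), 80.6 to 114 CPM in Exp2 (median 96.1), and 148, 174, 271, 346 and 223 CPM in the 5 Exp1 hearts. Only Exp1 replicate 1 reached the injected range (log2 difference -1.04 ± 0.12 (SE), adjusted p = 4.2e-07; GC-adjusted -0.59). Chordc1, a partner of that chaperone, was higher in Exp3 than in Exp2 without overlap, at 28.7 to 35.6 CPM against 21.2 to 26.0 CPM (log2 difference 0.41 ± 0.12 (SE), adjusted p = 0.019; GC-adjusted 0.54).

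Of 18 cell cycle genes tested, 0 were called higher and 11 lower in the injected cohorts than in Exp1 (median -0.66), where 31.4% and 32.4% of all genes were, and 0 higher and 9 lower after the GC adjustment, where 19.4% and 20.0% of all genes were (median -0.60). Ccna2, a cyclin of S phase and mitosis, was at 0.295 to 0.699 CPM in Exp3 (median 0.442), 0.414 to 0.728 CPM in Exp2 (median 0.523), and 0.751, 1.09, 2.22, 1.65 and 1.99 CPM in the 5 Exp1 hearts, with no overlap (log2 difference -1.66 ± 0.21 (SE), adjusted p = 6.6e-07; GC-adjusted -1.37). Mki67, the proliferation antigen, was at 0.877 to 2.92 CPM in Exp3 (median 2.12), 1.29 to 3.77 CPM in Exp2 (median 2.52), and 3.99, 3.81, 7.09, 6.39 and 8.65 CPM in the 5 Exp1 hearts, again with no overlap (log2 difference -1.40 ± 0.23 (SE), adjusted p = 1.9e-05; GC-adjusted -1.13). No cell cycle gene was called between Exp3 and Exp2, and 1 was called lower in Exp3 after the GC adjustment.

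Of 21 fatty acid oxidation genes, 7 were called lower and 0 higher in Exp3 than in Exp2, against 10.9% and 12.0% over all genes (9 lower and 0 higher GC-adjusted, against 14.6% and 13.2%). Against Exp1, 6 of them were called higher and 8 lower in the injected cohorts, near the 31.4% and 32.4% over all genes. Cpt1a, which admits long-chain fatty acids to the mitochondrion, was at 34.4 to 48.4 CPM in Exp3 (median 40.0), 52.8 to 72.9 CPM in Exp2 (median 64.5), and 55.4, 71.6, 62.4, 65.4 and 53.9 CPM in the 5 Exp1 hearts. Every Exp3 heart was below every other heart (log2 difference -0.67 ± 0.08 (SE), adjusted p = 3.9e-06; GC-adjusted -0.60). Of 16 glucose-use genes 13 were called higher and 1 lower in the injected cohorts than in Exp1 (median 0.72), and 6 higher and 1 lower after the GC adjustment (median 0.22), against the same 31.4% and 32.4%, and 19.4% and 20.0% adjusted. Between Exp3 and Exp2, 0 glucose-use genes were called in either direction, or 1 higher and 2 lower after the adjustment. Eno3, the muscle enolase, was at 734 to 1127 CPM in Exp3 and 856 to 1082 CPM in Exp2, against 691, 589, 333, 345 and 415 CPM in Exp1, with no overlap (log2 difference 1.05 ± 0.14 (SE), adjusted p = 1.2e-06; GC-adjusted 0.47).

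**Figure D5:**
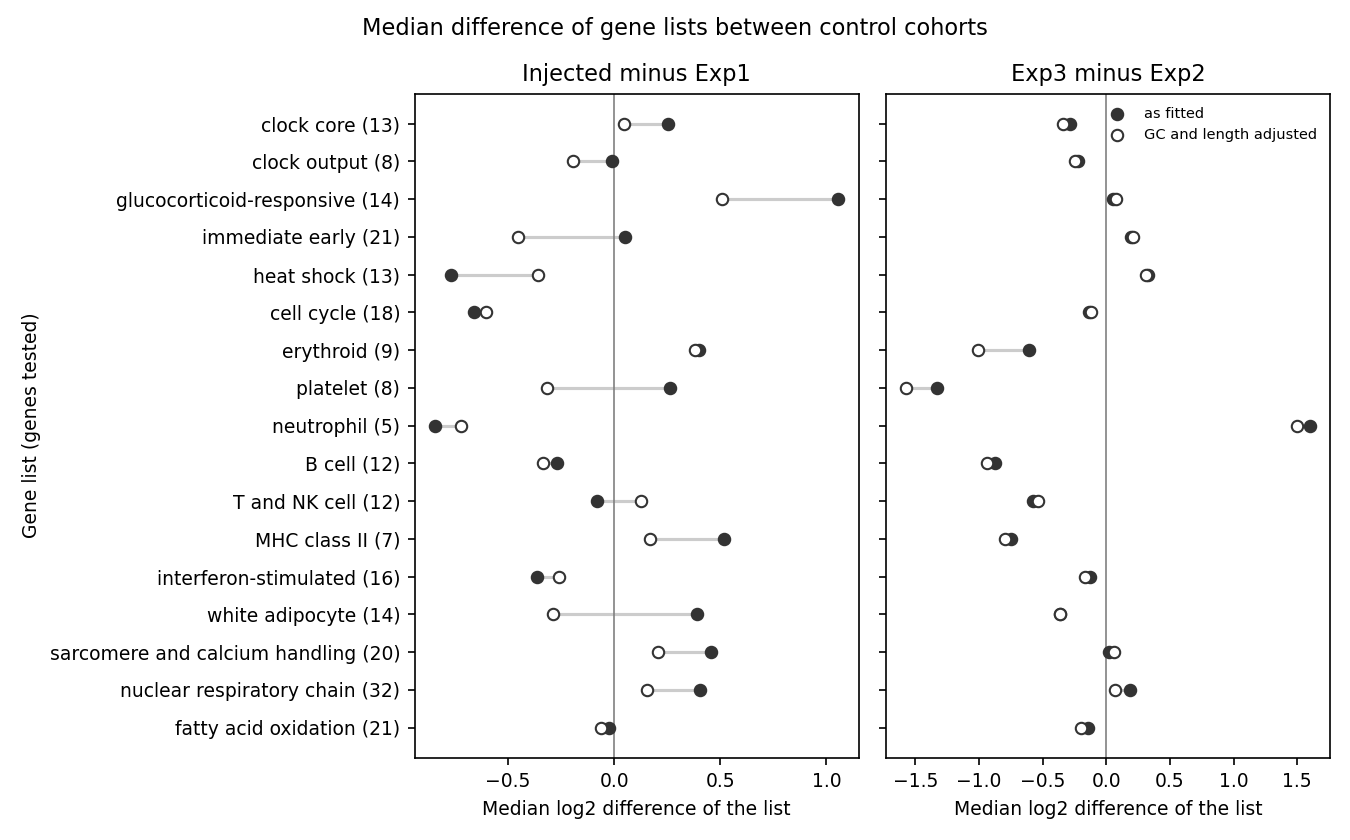
Median log2 difference (x axis) of 17 gene lists (y axis, with the number of genes tested), left for the injected cohorts minus Exp1 and right for Exp3 minus Exp2; filled points are the values as fitted and open points those after the GC and length adjustment. The glucocorticoid list stays to the right and heat shock and cell cycle lists to the left against Exp1, and platelet and neutrophil lists lie farthest apart in Exp3 against Exp2.

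Among the genes with the largest falls was Scn4b, a beta subunit of the cardiac sodium channel, at 12.5 to 29.0 CPM in Exp3 (median 16.0), 29.3 to 42.7 CPM in Exp2 (median 34.6), and 28.2, 39.8, 32.9, 32.8 and 35.8 CPM in the 5 Exp1 hearts. It did not overlap Exp2 (log2 difference -0.93 ± 0.15 (SE), adjusted p = 1.2e-04; GC-adjusted -0.85). Both Exp3 controls of dissection batch 4, at 29.0 and 27.5 CPM, were near the lowest Exp2 heart. The Exp3 controls of the other batches ran from 12.5 to 17.8 CPM. Slc40a1, the iron exporter ferroportin, was at 11.9 to 16.4 CPM in Exp3 (median 14.3), 20.3 to 27.4 CPM in Exp2 (median 24.4), and 27.2, 38.0, 42.6, 50.0 and 29.9 CPM in the 5 Exp1 hearts. The cohort medians ran in order with Exp3 lowest and Exp1 highest, Exp3 and Exp2 did not overlap (log2 difference -0.75 ± 0.11 (SE), adjusted p = 3.0e-05; GC-adjusted -0.77), and the injected cohorts were lower than Exp1 (log2 difference -1.02 ± 0.10 (SE), adjusted p = 7.1e-08; GC-adjusted -0.49). Marcks, a membrane and actin-binding protein gene, was at 15.5 to 26.2 CPM in Exp3 and 17.7 to 28.8 CPM in Exp2, against 44.3, 46.6, 64.3, 61.4 and 63.0 CPM in Exp1 (log2 difference -1.35 ± 0.11 (SE), adjusted p = 6.7e-09; GC-adjusted -1.02). The injected and Exp1 hearts did not overlap.

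Most genes were steady among hearts of a cohort. Over 16519 genes the median within-cohort SD of log2 CPM was 0.241, with 0.174 in Exp3, 0.208 in Exp2 and 0.302 in Exp1. Of 10006 genes whose mean reached 5 CPM, 59 (0.59%) had an SD over 1. The 15 with the largest SD included 6 from the fat and fatty acid synthesis lists, Ucp1, Pck1, Scd1, Elovl6, Plin1 and Adipoq. Others have near-identical copies. Fam177a had 8.17 to 25.9 CPM in Exp3, 0 to 4.27 CPM in Exp2 and 0 to 3.56 CPM in Exp1, yet its sum with the copy Fam177a2 was 21.2 to 25.9 CPM, 19.5 to 23.2 CPM and 21.01 to 27.8 CPM in the same cohorts. The Fam177a call between cohorts is therefore uncertain as a change of either copy.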

How the data were processed

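Poly(A)-selected, stranded RNA-seq libraries of whole hearts were read from a gene table of estimated counts that the authors deposited, made with Salmon 1.9.0 and R 4.2.2 on GRCm38, per the submitters' processing notes. Of its values 24.56% were not whole, and counts were rounded. All 51368 rows entered the library totals, 157 of them repeating a symbol, and 50896 matched the GENCODE annotation used for coordinates, GC content and exon length. Tests were run in edgeR 4.0.16 (R 4.3.3) by its robust quasi-likelihood test on the 21 controls, with TMM scaling, filterByExpr (minimum count 10) and Benjamini-Hochberg adjustment at 0.05. DESeq2 1.42.0 and limma voom 3.58.1 served as alternatives, and the scripts were tested on simulated counts. CPM of naproxen and tryptophan hearts come from a separate scaling, so their levels are compared within that scaling alone. The GC and length adjustment and the naproxen interaction were chosen after the data were seen.

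The members and gene lists were chosen with earlier results of these data known. Genes were named by these rules: the 10 largest rises and falls without overlap per comparison, up to 3 called genes per list, the 8 smallest p among dissection batches, the 15 largest SDs and the most abundant genes. Other single genes, such as Bpifa1, Malat1, Rn7sk and Pf4, were chosen after their values were seen. Labels give each heart its own animal number, so replicates are separate mice. Replicate numbers do not pair the cohorts. Limits given for genes without counts cover counting error only, at depths of 27.1 to 69.8 per heart (in units of 1e+06 counts). SD and SE values come from separate hearts and so include variation between mice. Results for a few members of the lists are not reported here.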

Additional observations from a re-analysis of the deposited data

Results flagged for a closer look

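Among 41 genes examined in 3 cohorts, 123 pairs, 17 held a heart that stood apart from its cohort by Dixon's criterion. Groups of independent normal values meet that criterion in about 1 in 20 cases. The 17 cannot be set against that rate, because the genes share their hearts and CPM were used without a log scale. Bpifa1 and Scgb1a1 were also picked after their values were seen. Exp3 replicate 6 stood apart for Arntl (8.82 CPM), Adipoq (58.5 CPM), Ucp1 (197 CPM), Scd1 (2527 CPM), Bpifa1 (19.0 CPM) and Scgb1a1 (19.4 CPM). In Exp3 replicate 3 was high for Pdk4, at 322 CPM. Exp2 replicate 8 stood apart for Adipoq (57.8 CPM) and Cfd (184 CPM), Exp2 replicate 7 for Myl3 (3084 CPM), and Exp2 replicate 4 for Bpifa1 (56.3 CPM) and Scgb1a1 (37.5 CPM). In Exp1, replicate 5 was high for Arntl (4.83 CPM) and S100a8 (4.39 CPM), replicate 1 for Junb (2.25 CPM) and Nppa (3247 CPM), and replicate 2 for Scgb1a1 (0.145 CPM, where its 4 fellows had 0). The Exp2 minus Exp1 difference of Per2 was larger in control hearts than in naproxen hearts by 0.98 on the log2 scale (edgeR interaction, adjusted p = 6.7e-04), a test added after the data were seen.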

How the results depend on the processing

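With the GC and length adjustment, added after the data were seen, 6477 genes were called in the injected cohorts against Exp1, 5708 in Exp2 against Exp1 and 6712 in Exp3 against Exp1, against 10546, 9995 and 10234 without it. With Exp1 replicate 1 also left out, the first 2 counts were 6545 and 5931. In naproxen hearts 3336 genes were called with it and 7766 without it, 2454 of them in both, and in the interaction 0 calls (728 at an unadjusted p under 0.05; 1 call without it, 3 by limma voom). The differences of the injected cohorts against Exp1 turned to -0.65 for Dbp, -0.25 for Cry2, -0.13 for C1qa, 0.068 for Pln and 0.025 for mt-Co1, and 12 other gene differences lost their call. Calls among dissection batches numbered 108, but 1106 by DESeq2, 2530 with no filter on low counts and 35 with the adjustment. The cause of these differences was not tested. Leaving out 1 heart gave 12 (without replicate 3 or 6) to 280 (without replicate 7) calls among dissection batches, with 6 of the 8 hearts moving that count by over 1.5 times, and 1 to 5 in the interaction. Leaving out 1 heart gave 9542 to 10859 calls for the injected cohorts against Exp1 and 3209 to 4640 for Exp3 against Exp2, the highest of both without Exp1 replicate 1. The summed length-scaled level of abundant genes, 60489.5 for the 15 nuclear ones, was 72316.2 with the longest transcript as length and 99656.7 with mitochondrial genes out of the total. Of 98 called gene differences, 90 kept their direction and call under every alternative other than the GC and length adjustment, with each heart left out in turn included. Replicate numbers do not pair the cohorts, since the 18 pairs correlated between -0.247 and 0.125. A fit with the replicate block called 9707 genes in the injected cohorts against Exp1 and 3232 in Exp3 against Exp2. Depth was lowest in Exp1, where a count of 0 allows up to 0.119 CPM.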
